A study of Mus musculus with 3 samples.

Results

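Cytosolic ribosomal protein genes were followed through single-cell libraries of a mouse glioma. The genes were chosen by name: the count table's protein-coding rows whose symbol was Rpl or Rps with a number and, for paralogs, a short suffix, together with Rpsa, Rplp0, Rplp1 and Rplp2. This gave 84 genes of the 50262 rows, 52 of the large subunit and 32 of the small subunit. All 84 had at least 1 UMI (unique molecular identifier, the tag by which copies of one captured mRNA are counted once). Together they held 3232682 of 56706147 UMIs, or 5.70%.

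The tumors arose in mice that carried, among other alleles, a conditional human EGFR transgene (wild type, measured here as hsEGFR), Cdkn2a-/- and a conditional luciferase reporter, after a lentivirus carrying Cre was injected into the striatum. All mice shared this genotype, so every tumor sample carried the same alleles, and the cells that carried the recombination were those the virus had reached. Brains without cerebellum were dissociated, depleted of myelin and sorted into viable CD45+ (immune) and CD45- (tumor and other nonimmune) cells for inDrop sequencing. There was 1 tumor sample at each of 3 sizes (early, medium, late), each with 4 technical libraries per sort, 24 in all over 3 sequencing runs. Where too few cells were obtained, samples were pooled before encapsulation, which the labels give for samples 1 and 2 without tying them to a tumor size. The authors' methods state that every Early sample was pooled and that each Late sample was a single tumor. How those samples map to the sizes annotated here is not given. Pooling and tumor size may therefore not be told apart in stage values. The mice were adults of a mixed background. Libraries of one tumor sample are technical repeats, so each tumor size is 1 replicate.

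Ribosomal proteins join rRNA in the nucleolus to form the small subunit, which decodes mRNA, and the large subunit, which joins amino acids. Their mRNAs, like those of several translation factors, usually start with a C followed by an unbroken run of pyrimidines, the terminal oligopyrimidine (TOP) tract, through which mTOR signalling and the RNA-binding protein Larp1 set their translation and stability. A few members have paralogs with narrower expression, such as Rpl3l in muscle and Rpl10l and Rpl39l in testis.

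Because these tracts lie at the 5′ end, short stretches around annotated starts are shown for members on which later comparisons turn. The sequences are RefSeq's for GRCm38.p6, 30 bases each with the annotated start at the 16th base, and capitals mark the longest run of C and T in the stretch. Rps27, Rplp2, Rpl38 and Rpl7a represent members with a long run at the start. The paralogs Rps27l, Rpl22l1 and Rpl7l1 and the genes Rpl13, Rpsa and Rpl41 left the common pattern in at least 1 comparison, as Rpl38 and Rpl7a also did.
Rps27 (chr3:90213634-90213663, minus strand): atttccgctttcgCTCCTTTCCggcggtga
Rplp2 (chr7:141447636-141447665, plus strand): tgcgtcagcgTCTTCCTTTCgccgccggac
Rpl38 (chr11:114668565-114668594, plus strand): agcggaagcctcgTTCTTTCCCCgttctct
Rpl7a (chr2:26910792-26910821, plus strand): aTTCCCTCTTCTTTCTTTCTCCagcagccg
Rps27l (chr9:66946071-66946100, plus strand): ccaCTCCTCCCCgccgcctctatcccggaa
Rpl22l1 (chr3:28805493-28805522, plus strand): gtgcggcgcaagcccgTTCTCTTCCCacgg
Rpl7l1 (chr17:46782642-46782671, minus strand): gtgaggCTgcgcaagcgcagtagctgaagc
Rpl13 (chr8:123102335-123102364, plus strand): TTCCCTTTCgcctgattttgattggcgttt
Rpsa (chr9:120127751-120127780, plus strand): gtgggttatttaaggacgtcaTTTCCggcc
Rpl41 (chr10:128549154-128549183, minus strand): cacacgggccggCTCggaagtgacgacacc

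In Rps27, Rplp2, Rpl38 and Rpl7a the run covered the annotated start, and in Rpl7a it was 21 bases long. In Rps27l the run of 9 bases ended before the start, and in Rpl7l1 the longest run was 2 bases. Annotated starts can differ from those a cell uses, so a stretch without a run at its 16th base does not show that the mRNA lacks one.

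Start regions were found for 64 of the 84 members (76 regions) and for 27025 genes in all. A run of at least 8 pyrimidines within 30 bases of the start stood in 54.7% of these members and 25.8% of all genes. Averaged over 10 bases on either side of the start, C or T made up 59.1% of bases in members and 49.1% in all genes. In the region from 250 bases before to 50 after the start, read on both strands, the letters CCGGAAG, the core of an ETS factor motif, were present in 40.6% of members and 9.93% of all genes. The letters AAGATGG, of the YY1 motif, were present in 15.6% and 7.28%. The TATA box letters TATAAA were found in 10.9% of members and 15.7% of all genes, and the E-box CACGTG in 9.38% and 8.09%. These are descriptions of letters in a window, not of binding.

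**Figure D1:**
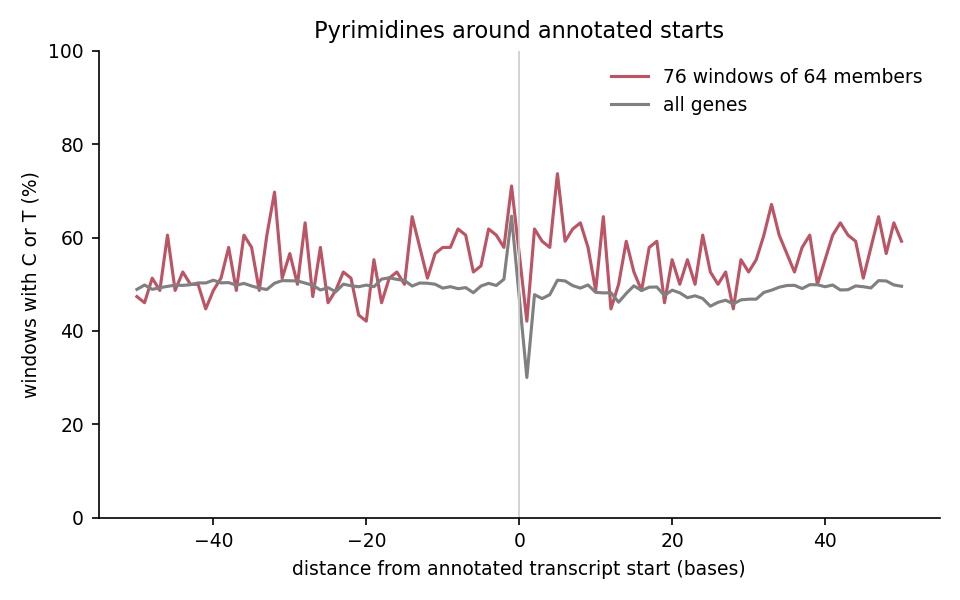
Share of start regions with C or T (y axis, percent) at each distance from the annotated transcript start (x axis, bases), for the 76 regions of 64 members (red) and for all genes (grey). The members' line reached 73.7% at 5 bases after the start, where all genes stood at 50.9%.

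After filtering, 17781 cells were kept, and the 6 sums of a tumor sample and sort held from 5381839 to 10808099 UMIs, of which 260811 to 827308 were of members. Ptprc, which encodes CD45, was at 227 to 250 CPM (UMIs scaled to the same total in every sum) in CD45+ sums and 3.59 to 15.9 CPM in CD45- sums, so both sorts matched their labels. From the early to the late tumor, hsEGFR was at 7.28, 706 and 1220 CPM in CD45- and at 1.85, 271 and 84.7 CPM in CD45+ sums. Of 18335 cell barcodes, 2117 occurred in more than 1 library. One late CD45+ library held 17 cells and its share is not used as a separate value.

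Ribosomal protein mRNAs took a larger share of UMIs in CD45+ than in CD45- cells of every tumor sample. In CD45+ cells the share was 6.86% (early tumor), 8.50% (medium) and 7.83% (late). In CD45- cells it was 3.22%, 4.27% and 5.65%, and triplets of values below keep this order of tumors. The groups did not overlap, and the mean was 7.73% ± 0.825 (SD, n = 3 tumor samples) against 4.38% ± 1.22. The paired difference was 3.35 ± 1.06 percentage points (exact paired permutation test, two-sided, p = 0.25, the smallest p that 3 pairs allow), and it was 3.33, 3.51 and 3.12 points within sequencing runs 1, 2 and 3.

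The share in CD45+ cells was higher than that in CD45- cells by factors of 2.13, 1.99 and 1.39. Clusters of cells that met no naming rule, described below, were also left out, a choice made after seeing the data. The shares were then 6.89%, 8.42% and 7.80% in CD45+ and 3.20%, 3.82% and 4.21% in CD45- cells. UMIs of mitochondrially encoded genes took 4.02% ± 0.743 of the total in CD45+ and 5.97% ± 2.26 in CD45- sums, and without them the shares were 8.05% and 4.64%. Counting error was small: the exact 95% binomial interval of the early CD45+ share ran from 6.85% to 6.88%, and such intervals cover counting error only.

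**Figure D2:**
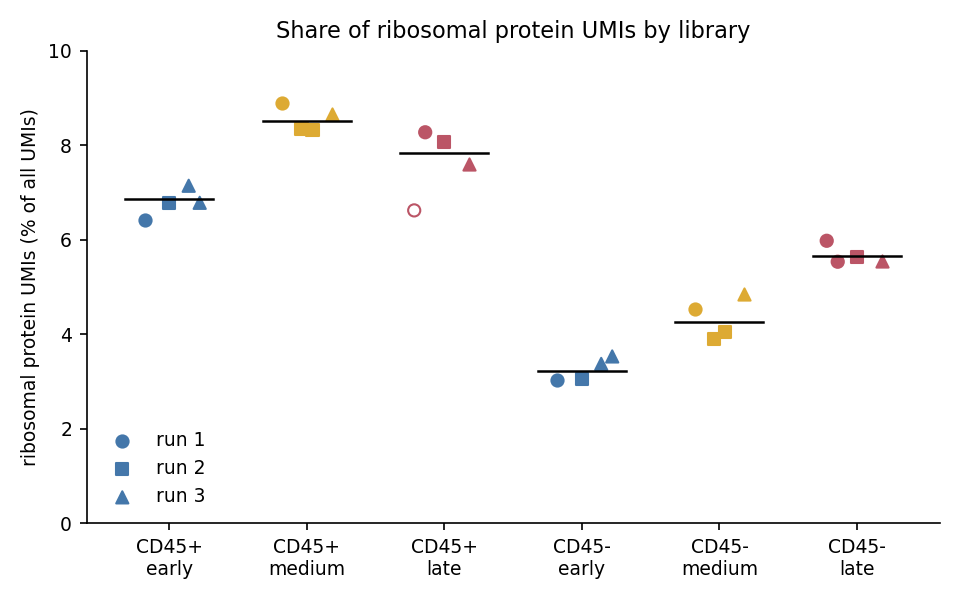
Share of UMIs on ribosomal protein genes (y axis, percent) in each technical library, grouped by sort and tumor sample (x axis), with the marker shape giving the sequencing run. Lines are the shares of the pooled libraries, and the open circle is a library of 17 cells. Every CD45+ library lay above every CD45- library.

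The 2 subunits were not in the same proportion in both sorts. UMIs of large-subunit genes per UMI of small-subunit genes were 1.24 ± 0.0204 in CD45+ and 1.40 ± 0.0299 in CD45- sums. Single CD45+ sums stood at 1.22, 1.26 and 1.25 and single CD45- sums at 1.38, 1.38 and 1.43, without overlap.

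Gene by gene the rise was broad. Of 82 members with enough counts to test, 76 were higher in CD45+ cells and 0 lower (edgeR quasi-likelihood test with the tumor sample as block, Benjamini-Hochberg adjusted p under 0.05 over 18433 genes). Among all genes 20.4% were higher and 25.7% lower. The median log2 difference was 1.18 over members and -0.04 over all genes. The 46 higher genes of the large subunit came from 50 tested and the 30 of the small subunit from 32. The 6 that did not pass were Rps27l, Rpl22l1, Rpl7l1, Rps2, Rpl24 and Rpl7, and Rpl10l and Rpl3l had too few UMIs to test. Scaling by total UMIs in place of TMM factors, which normalise for composition, moved the median of all genes to -0.40 and gave 49 calls, each of them higher. Leaving out the medium sample gave 21 calls and leaving out the early one 43. Here and below, shares of all genes called come from the main fits, and counts from other fits have none beside them.

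The genes with most UMIs followed this pattern. Rpl41, which encodes the smallest protein of the ribosome, had a log2 difference of 1.00 ± 0.30 (SE; edgeR adjusted p = 0.0287). Rpl10 and Rpl4, next to it in UMIs among large-subunit genes, and Rps24 and Rps14, next to Rps29 among small-subunit genes, were at 1.44, 0.98, 1.43 and 1.34. Rps29, a zinc-binding protein of the small subunit, had a log2 difference of 1.97 ± 0.27 (SE), the highest of any member outside the paralogs. Rplp0, Rplp1 and Rplp2 form the stalk that recruits elongation factors, and their log2 differences were 1.03, 1.26 and 1.44. The value of Rpsa, a small-subunit protein also known as the laminin receptor precursor, was 0.88.

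Most members moved as one block, which was measured by rescaling each sum to its own ribosomal protein UMIs. A member was said to leave the common pattern when it then had an adjusted p under 0.05, a log2 difference of at least 0.5 and the same sign in all 3 tumor samples, with 0.5 UMIs added to each count for the sign. Between sorts 5 of 82 tested members did so, Rpl39l upward and Rps27l, Rpl22l1, Rpl7l1 and Rps2 downward. Among all genes on this scale 7.01% were higher and 65.8% lower.

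Rps27l, a paralog of Rps27 known as a p53 target, contributed 1.33, 2.51 and 1.98 of every 1000 ribosomal protein UMIs in CD45+ sums. In CD45- sums it contributed 5.14, 4.32 and 4.73, above all CD45+ values. On the rescaled counts its log2 difference was -1.33 ± 0.33 (SE; edgeR adjusted p = 0.00151), and it kept its call in all 7 alternatives. Rps27 itself was at 20.5, 19.4 and 19.3 per 1000 in CD45+ and 16.7, 15.2 and 12.6 in CD45- sums, higher in CD45+ sums without overlap, and did not pass the rule.

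Rpl22l1 showed a similar picture beside Rpl22, a protein needed for T cell development. Rpl22l1 was at 1.28, 1.57 and 1.70 per 1000 in CD45+ and 3.44, 2.73 and 2.56 in CD45- sums, a log2 difference of -0.93 (edgeR adjusted p = 0.0122). Rpl22 was at 6.66 to 7.63 in CD45+ and 6.80 to 7.44 in CD45- sums, and these overlapped. Rpl22l1, Rpl7l1 and Rps2 each lost the call without the early or without the medium sample.

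Rpl7l1, a low paralog of Rpl7, was at 0.513 to 0.715 per 1000 in CD45+ and 1.07 to 1.25 in CD45- sums, with a log2 difference of -0.90. Rps2, a small-subunit protein near the mRNA entry, had a log2 difference of -0.72, from 4.73, 6.37 and 6.93 per 1000 in CD45+ to 8.20, 9.61 and 11.9 in CD45- sums. Rpl39l was called upward on 88 UMIs in CD45+ and 29 in CD45- sums, and its CPM values overlapped between sorts, at 3.79, 0.617 and 7.62 against 0.370, 0.152 and 2.36. It was not called in every fit that left out a tumor sample.

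The other paralogs did not pass the rule or were too low to test. Rpl36al was at 2.95 to 3.44 per 1000 in CD45+ and 3.40 to 4.49 in CD45- sums, while Rpl36a was at 5.91 to 6.34 and 6.91 to 7.25. Rpl39 was at 11.1 to 12.7 and 9.29 to 11.2 per 1000, and Rps4x at 14.7 to 18.5 and 15.7 to 16.8. Rpl3 was at 7.11 to 8.33 and 8.94 to 9.41 per 1000, whereas Rpl3l had 38 UMIs in the whole table. Rpl10 was at 19.7 to 21.7 and 16.8 to 19.98 per 1000, whereas Rpl10l had 45 UMIs in the whole table.

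Related genes outside the name rule were counted from lists. Of all genes 20.4% were higher in CD45+ cells and 25.7% lower. Of 18 other TOP mRNAs 8 were higher and 0 lower, with a median log2 difference of 0.64. Fau, which encodes a small-subunit protein fused to a ubiquitin-like domain, was highest at 2.10 and Pabpc1, the poly(A)-binding protein, next at 1.61. Of 22 ribosome assembly genes 6 were higher and 1 lower, of 9 regulators 4 were higher and 2 lower (Rptor, an mTOR partner, at 1.33 and Eif4ebp1 at 1.28 against Mycn at -4.59), and of 75 mitochondrial ribosomal proteins 3 were higher and 9 lower (median -0.17). The assembly genes' share higher was close to that of all genes, and nothing is read from it.

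With 1 tumor sample per stage, stage values are descriptions. The CD45- share was lowest in the early and highest in the late sample, by 2.43 percentage points. The difference was 2.65, 2.58 and 2.12 points within runs 1, 2 and 3. In CD45+ cells the medium sample was highest, 1.64 points over the early one (2.47, 1.57 and 1.71 within runs). The late sample exceeded the early one by 0.964 points (1.54, 1.29 and 0.650 within runs).

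Cell makeup moved along with these shares. Of CD45+ cells, 76.4%, 18.8% and 45.3% were microglia-like, and 5.97%, 39.6% and 32.3% macrophage or monocyte-like. Oligodendrocyte-like cells were 50.2%, 41.2% and 30.6% of CD45- cells. Cells of clusters that met no naming rule were 0.587%, 9.11% and 23.9% of CD45- cells, and in the late sample they held 53.3% of the ribosomal protein UMIs. Without them the CD45- share was 3.20%, 3.82% and 4.21%, so that the late sample exceeded the early one by 1.01 points, a comparison added after seeing the data.

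Cells were clustered without the ribosomal protein genes, and a cluster was called "-like" a cell type by listed marker genes; 29 of 35 clusters were named and 1417 cells in 6 clusters were not. Immune classes were taken from CD45+ and other classes from CD45- libraries, and 13 classes had all 3 tumor samples. Named classes with under 20 cells in a tumor sample were left out. Over all tumor samples these had 11.9% (plasmacytoid dendritic cell-like, 60 cells), 10.4% (dendritic cell-like, 37), 9.12% (B cell-like, 221) and 3.37% (ependymal-like, 124). T cell-like cells had the highest share of any of the 13, at 14.7%, 14.6% and 14.7%. Among the 13, macrophage or monocyte-like cells followed with 9.75%, 9.14% and 8.69%. Border or perivascular macrophage-like cells had 7.75%, 7.77% and 7.66%, and microglia-like cells 6.09%, 6.30% and 6.28%.

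The first 3 of these classes each lay above the next in all 3 samples, and microglia-like cells exceeded fibroblast-like cells (5.50%, 5.85% and 6.39%) in 2 of 3. Endothelial-like cells had a mean of 5.37% ± 0.487 and mural-like cells 4.58% ± 1.36, and the 2 did not keep their order in every sample. Glioma or oligodendrocyte progenitor-like cells had 4.28% ± 2.04 and choroid plexus epithelial-like cells 3.71% ± 0.521, also without a fixed order. Unnamed CD45- cells, at 7.79% over all tumor samples, were in none of these classes. Their hsEGFR was not measured on its own. The late CD45- sum as a whole had hsEGFR at 1220 CPM. The glioma or oligodendrocyte progenitor-like class had 2583 CPM there, on 27.3% of that sum's UMIs, and unnamed cells held 37.4% of them. These values leave part of the late hsEGFR outside the class, so the class need not hold every tumor cell. Lowest were neutrophil-like cells at 2.80% ± 0.320, neuron-like cells at 2.78% ± 0.801, oligodendrocyte-like cells at 2.44% ± 0.0753 and astrocyte-like cells at 2.12% ± 0.218. Each of the first 3 of these exceeded astrocyte-like cells in all 3 samples, and neutrophil-like cells exceeded oligodendrocyte-like cells in all 3. Neuron-like cells, at 2.59%, 3.65% and 2.09%, changed order with both.

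**Figure D3:**
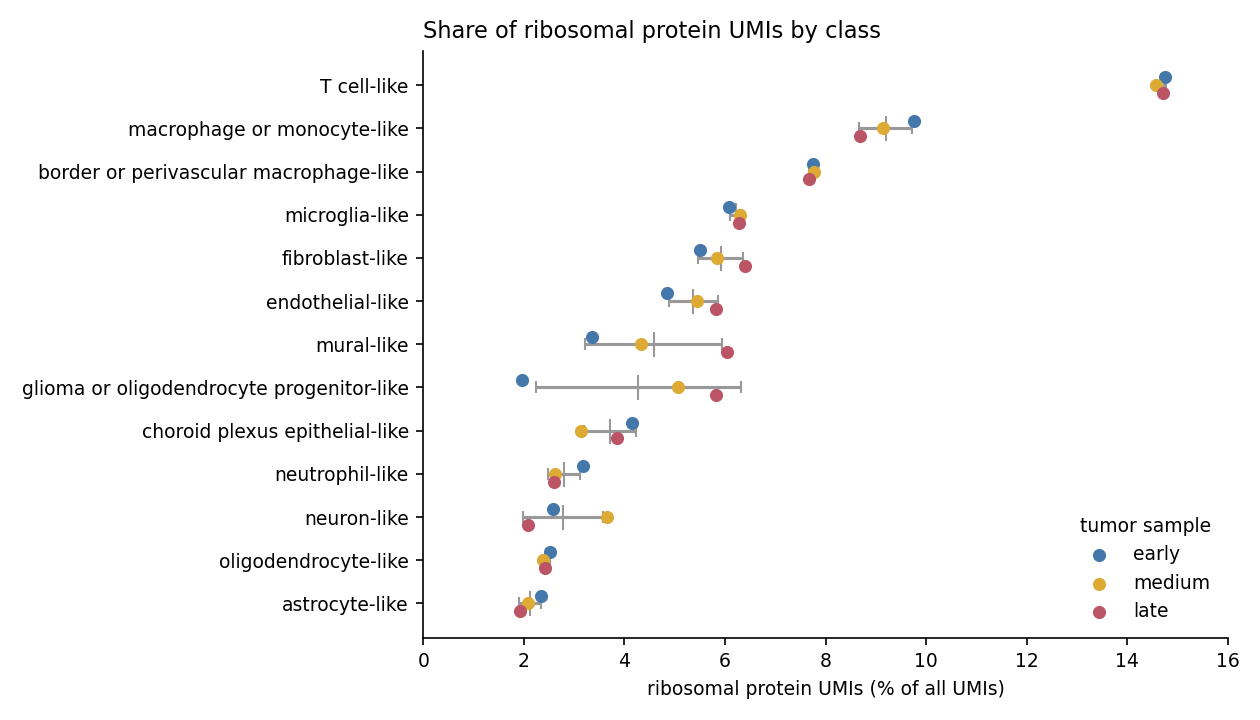
Share of UMIs on ribosomal protein genes (x axis, percent) in 13 marker-defined classes (y axis), with a point per tumor sample and a grey bar for mean ± SD (n = 3). T cell-like sums lay between 14.6% and 14.7%, and the glioma or oligodendrocyte progenitor-like sums ranged from 1.96% to 5.81%.

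Neutrophil-like cells, which are CD45+, had 3.17%, 2.63% and 2.61%, below every CD45+ sum as a whole. The subunit ratio also varied by class: large-subunit UMIs per small-subunit UMI were 1.17 ± 0.0234 in neutrophil-like, 1.23 ± 0.00736 in T cell-like and 1.28 ± 0.0155 in oligodendrocyte-like cells, and 1.54 ± 0.0271 in choroid plexus epithelial-like cells.

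How far the share differed between stages depended on the class. It ran from 14.6% to 14.7% in T cell-like and from 6.09% to 6.30% in microglia-like cells, but from 3.36% to 6.05% in mural-like, from 2.09% to 3.65% in neuron-like and from 1.96% to 5.81% in glioma or oligodendrocyte progenitor-like cells. Single members were compared between 2 tumor samples where both had at least 100 cells of a class, which left out mural-like, fibroblast-like, choroid plexus epithelial-like, neutrophil-like and astrocyte-like cells. Of 1464 such values, 192 (13.1%) were past 1.5-fold, against 38.0% of the values of all genes. Genes entered with at least 10 UMIs over both samples, and most members held far more. Low counts pass a fold limit more easily by counting error. Shares of members and of all genes, here and in the pairs below, are thus not matched for abundance. Glioma or oligodendrocyte progenitor-like cells compared with their early sample gave 158 of the 192, and the other pairs 34 of 1302 (2.61%). Within run 2 the share past 1.5-fold was 1.50% and within run 3 it was 2.32%, with fewer pairs of enough cells, so neither is matched to the 13.1%. In glioma or oligodendrocyte progenitor-like cells 79 of 81 members were past 1.5-fold higher in the medium sample and 79 of 81 in the late sample, where 21.4% and 23.1% of all genes were (29.8% and 30.7% of all genes were past it lower, and 0 members). This class was not made of the same cells at each stage: 127 of 171 early cells lay in a cluster led by Pdgfra, and 225 of 304 medium and 549 of 606 late cells in one led by Gpr17, Bcas1 and hsEGFR. Within the Pdgfra-led cluster the share was 1.73%, 1.92% and 2.28%. Within the cluster led by Gpr17, Bcas1 and hsEGFR it also rose from early to late, over a wider range given below. The part of makeup in the stage values of the class was not tested. In T cell-like cells 1 of 81 members was past it upward from early to medium (22% of all genes) and 0 from early to late (26.2%), and in oligodendrocyte-like cells 0 of 81 (17.8%). In neuron-like cells 18 of 81 members were past 1.5-fold lower in the late than in the early sample, where 18.3% of all genes were. That share was close to that of all genes, and nothing is read from it. Neuron-like cells joined a cluster led by Meg3, Syt1 and Snap25 with a cycling one led by Dlx2, Igfbpl1 and Dlx6os1. The part of each in their stage values was not tested.

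T cells carry antigen receptors and divide on activation, and microglia are the brain's resident macrophages. The share was higher in T cell-like than in microglia-like cells by 8.66, 8.28 and 8.43 percentage points, a mean of 8.46 ± 0.188 (exact paired permutation test, two-sided, p = 0.25). Of 81 members tested, 71 were higher and 0 lower (edgeR fit over 13 classes with the tumor sample as block), where 11.9% and 15.3% of 12786 genes were. The median log2 difference was 1.05 over members and -0.24 over all genes. The count was 38 without the medium sample. Microglia markers were present in T cell-like sums, with 9 of 9 detected and 1829 to 2938 CPM in sum against 15553 to 18786 in microglia-like sums. Macrophage or monocyte markers summed to 1792 to 2832 CPM in T cell-like sums (12 of 12 detected) against 268 to 452. The T cell-like cluster was led by Xcl1, Il2rb and Nkg7, genes that natural killer cells also express, beside the T cell receptor genes Trac and Trbc2, and natural killer markers (8 of 8 detected) summed to 465 to 969 CPM in it against 2.09 to 5.25 in microglia-like sums. The part of these markers in the values was not tested.

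Relative to the ribosomal protein total, Rpsa and Rps15a were higher and Rpl7l1 and Rps29 lower, 2 and 2 of 81 where 3.94% and 42.7% of all genes passed the same rule. Rpsa contributed 17.3, 18.7 and 19.8 per 1000 ribosomal protein UMIs in T cell-like and 7.79, 9.26 and 9.80 in microglia-like sums, a log2 difference of 1.06 ± 0.26 (edgeR adjusted p = 0.00128). Rps29 contributed 21.2, 20.3 and 25.3 in T cell-like and 44.4, 41.0 and 48.6 in microglia-like sums, a difference of -1.01. Rpl7l1 fell by 1.58, on 74 UMIs in T cell-like cells. Rps15a, a small-subunit protein, had a difference of 0.61 and was at 10.2 to 12.7 against 6.97 to 7.71 per 1000. None of these 4 kept its call without the medium sample. The number of members past an adjusted p of 0.05 on this scale depended on the fit, with 26 by DESeq2, 35 with only both classes fitted and 9 with cells classed by their own markers.

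On the scale of all UMIs Rpsa had the highest difference of the members (2.10 ± 0.30), followed by Rps15a (1.65) and Rpl22l1 (1.64), and Rps29 stood at 0.03 and Rpl7l1 at -0.53. Rpl22l1 was thus called higher in T cell-like cells, with a log2 difference for Rpl22 of 1.28. Of the other TOP mRNAs 11 of 18 were higher (11.9% of all genes were), among them Rack1, a scaffold protein on the small subunit, with 1.33, and Eef1g, a subunit of elongation factor 1, with 1.30. Of 21 ribosome assembly genes 4 were higher, of 8 regulators 1 was higher and 1 lower, and of 72 mitochondrial ribosomal proteins 7 were higher, with a median of 0.38.

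Macrophage or monocyte-like cells had a share higher than microglia-like cells by 3.66, 2.85 and 2.41 points (mean 2.97 ± 0.635, exact paired permutation p = 0.25). Different clusters held most of the class by stage: one led by Cxcl9 had 1131 of its medium cells, one led by Rnase2a, Spp1 and Arg1 had 572 of its late cells, and in the early sample one led by Ly6i, Xcr1, Ms4a4c and Ccr2 had 130 cells and the Cxcl9-led one 117. Xcr1 and Itgae, also among the top 10 genes of the Ly6i-led cluster, are known from conventional dendritic cells. Dendritic cell markers (10 of 10 detected) summed to 1022 to 1212 CPM in macrophage or monocyte-like and 969 to 1157 CPM in microglia-like sums. Of 81 members 16 were higher and 0 lower in the fit over all classes, where 6.76% and 4.73% of all genes were. The median log2 difference was 0.63, against -0.09 over all genes, and 80 of 81 values were above 0.

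This count depended on the fit: 45 by DESeq2, 77 with only both classes in the fit, and 1 without the medium or without the late sample. No share of all genes is given beside these counts. The highest member was Rps27l at 1.43 ± 0.35, then Rpsa at 1.09 and Rpl41 at 1.05. The lowest were Rpl7l1 at -0.01, Rplp1 at 0.11 and Rpl30 at 0.20. Relative to the ribosomal protein total 0 of 81 members passed (1 at an unadjusted p under 0.05; DESeq2 called 8), where 2.8% of all genes passed upward and 10.7% downward. Microglia markers summed to 3578 to 5267 CPM in macrophage or monocyte-like cells (9 of 9 detected), and their part was not tested. Of the other lists, 0 of 18 TOP mRNAs and 0 of 21 assembly genes passed in edgeR, 1 of 8 regulators was lower (Rptor, -1.29) and 3 of 72 mitochondrial ribosomal proteins were higher, where 6.76% of all genes were higher and 4.73% lower.

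In this comparison the early sample went against the other 2. The share of glioma or oligodendrocyte progenitor-like cells minus that of oligodendrocyte-like cells was -0.564, 2.68 and 3.40 points (mean 1.84 ± 2.11, exact paired permutation p = 0.5). Of 81 members 15 were higher and 0 lower, where 18.2% and 13.8% of all genes were. This count depended on the fit: it was 53 with total UMIs in place of TMM factors, which moved the median log2 difference of all genes from 0.10 to 0.57. It was 23 by DESeq2, 8 without the filter on low counts, 3 with only both classes fitted and 2 with cells classed by their own markers. The count was 38 without the early sample, 2 without the medium and 2 without the late one. The class joined 2 clusters in unlike proportion, and these were therefore also compared apart, a choice made after seeing the data.

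The first cluster, called the hsEGFR cluster here, was led by Gpr17, Bcas1 and hsEGFR. It held 44 early, 225 medium and 549 late CD45- cells with a share of 2.69%, 5.69% and 6.03%. hsEGFR was at 2456 and 2721 CPM in its medium and late sums and had 0 UMIs in its early sum, which also carried 16897 CPM of oligodendrocyte markers (11 of 11 detected over the samples) where the lowest sum carried 3125. The second, called the Pdgfra cluster, was led by Pdgfra, C1ql1 and Neu4, genes of oligodendrocyte progenitors, with 127, 79 and 57 cells and a share of 1.73%, 1.92% and 2.28%. hsEGFR was at 0, 0 and 313 CPM in it.

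The 2 clusters lay on opposite sides of oligodendrocyte-like cells, whose share was 2.52%, 2.38% and 2.42%. In the hsEGFR cluster 25 of 81 members were higher and 0 lower than in oligodendrocyte-like cells, with a median log2 difference of 0.48 (17.1% and 15.1% of 12233 genes). Without the early sample, the one lacking hsEGFR, 53 were called, and without the medium or the late one 2. In the Pdgfra cluster 1 was higher and 62 lower, with a median of -0.89 (17.2% and 15.9% of genes), and these 63 calls became 34 without the early, 29 without the medium and 44 without the late sample. With total UMIs in place of TMM factors these became 74 calls for the first and 18 for the second cluster, 2 higher and 16 lower. Against each other, 78 of 81 members were higher in the hsEGFR cluster, with a median of 1.39 (5.73% of genes higher and 4.33% lower), and Rpl13, Rpl7l1 and Rpl22l1 did not pass. This count was 78 without the early, 27 without the medium and 40 without the late sample.

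Rpl13 departed most in the Pdgfra cluster. Rpl13, a large-subunit protein, contributed 67.1, 75.4 and 68.6 of every 1000 ribosomal protein UMIs there, against 17.8, 17.7 and 19.1 in oligodendrocyte-like and 34.2, 24.5 and 25.9 in hsEGFR cluster sums. On the rescaled counts the log2 difference to oligodendrocyte-like cells was 1.95 ± 0.24 (edgeR adjusted p = 7.04e-09), and it was the one member also higher on the scale of all UMIs (1.05 ± 0.23). In this gene 13 other rows shared a stretch of 50 bases with it and held 128516 UMIs against its own 61707. With those rows added to Rpl13, and all 827 rows that share sequence with any member added to the total, the difference was 1.88 ± 0.0800 (SD, n = 3).

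In the rescaled counts Rpl10a, Rpl22l1 and Rpl7l1 were also higher in the Pdgfra cluster, and Rps21, Rps3, Rps10 and Rps24 lower, 4 and 4 of 81 in all (33.8% and 5.21% of all genes). Rpl10a was at 8.35, 9.26 and 6.07 per 1000 there and at 3.55, 3.12 and 3.25 in oligodendrocyte-like sums. The 4 that were lower belong to the small subunit and the 4 that were higher to the large. Rpl22l1 and Rpl7l1 rested on 64 and 46 UMIs in the Pdgfra cluster. By adjusted p alone these 8 became 6 without the early, 2 without the medium and 3 without the late sample, 3 without the filter on low counts and 22 by DESeq2.

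The hsEGFR cluster was set against the same oligodendrocyte-like sums, so its values are not independent of those above. Rpl10a, Rpl13 and Rpl41 were higher and Rps21 and Rps3 lower, 3 and 2 of 81 (10.5% and 19.1% of all genes), and none kept its call without the medium or without the late sample. Rpl10a was at 3.49, 7.88 and 7.68 per 1000, and its early value, on 10 UMIs, lay below the 3.55 of oligodendrocyte-like cells. Rpl10a met the rule of one sign there only through the 0.5 UMIs added. Rps21 was at 17.5, 11.2 and 9.83 per 1000 against 20.7, 20.95 and 19.0, and Rps3, a small-subunit protein at the mRNA entry that also acts in DNA repair, at 14.7, 12.4 and 12.7 against 21.8, 22.2 and 20.1.

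Between the 2 clusters Rplp0 and Rpl41 were higher and Rpl13 lower in the hsEGFR cluster relative to the total (0.736% and 50.1% of all genes). Rplp0 was at 17.8, 20.2 and 22.7 per 1000 against 11.9, 9.45 and 14.2. For the joined class the departures were Rpl10a (1.18) and Rpl13 (1.00) upward and Rps21 (-0.83) and Rps3 (-0.78) downward, where 12.3% and 10.6% of all genes passed.

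The other lists were counted for the joined class against oligodendrocyte-like cells, where 18.2% of all genes were higher and 13.8% lower. Of 8 regulators tested, 3 were higher, among them Myc, a transcription factor that promotes ribosome production, with a log2 difference of 3.83 ± 0.55, and Eif4ebp1, an mTOR target that restrains cap-dependent translation, with 2.62. Of 21 ribosome assembly genes 4 were higher, a share close to that of all genes, with Nhp2 at 1.80 and the nucleolar methyltransferase Fbl at 1.41. Of 18 other TOP mRNAs 5 were higher and of 72 mitochondrial ribosomal proteins 2 were higher and 3 lower.

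**Figure D4:**
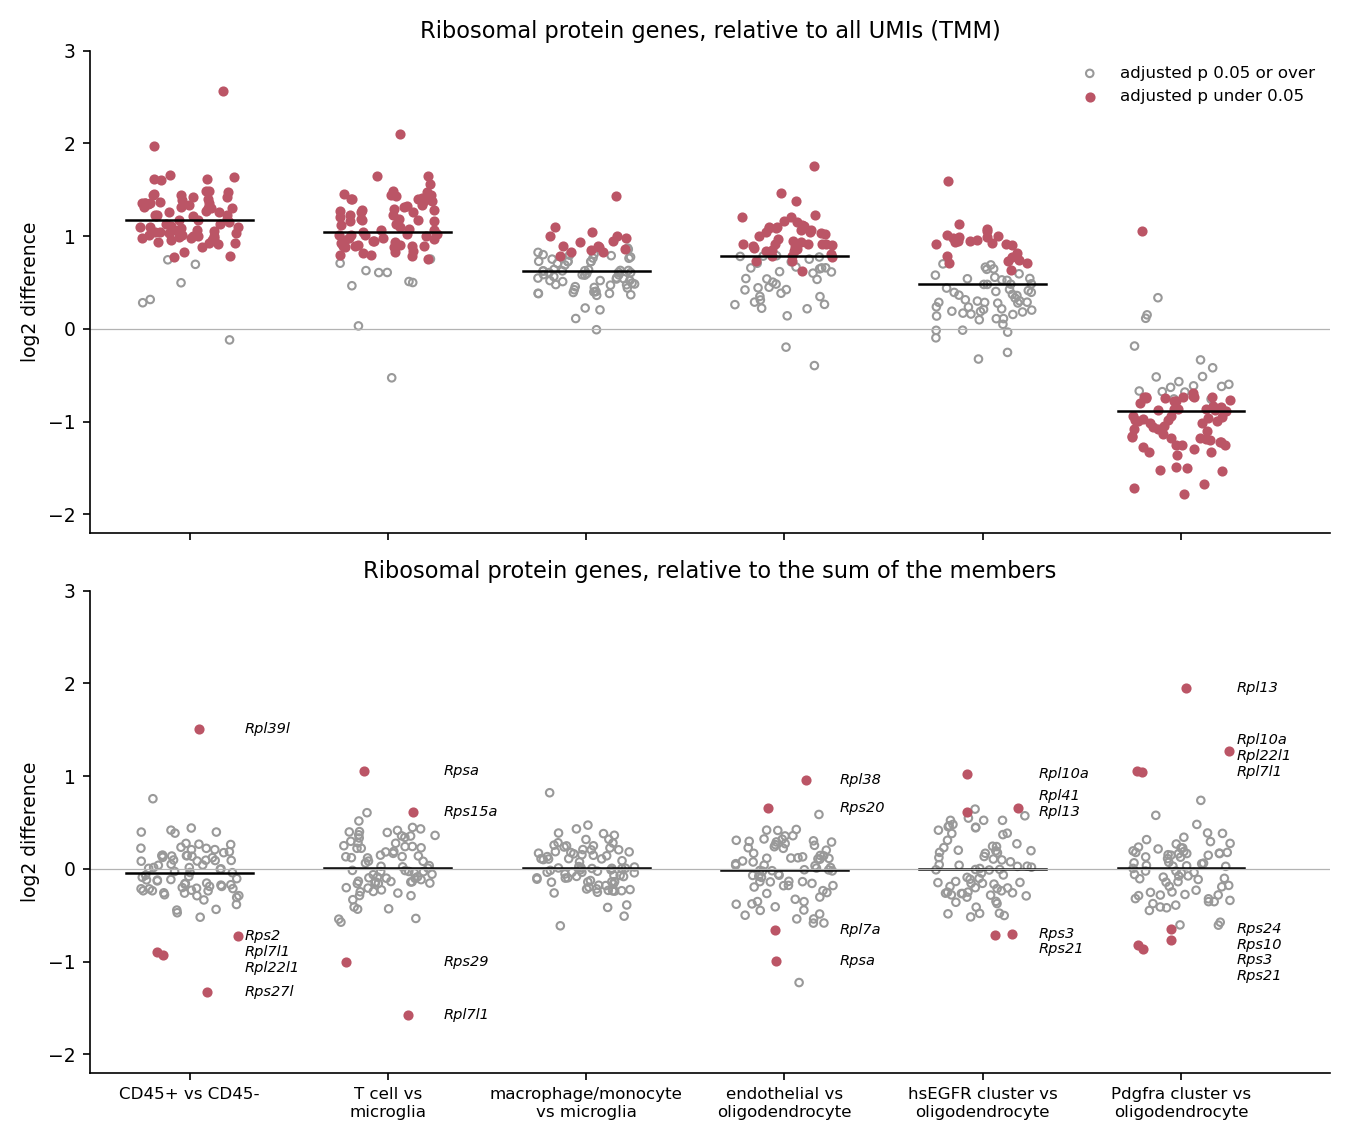
Log2 differences (y axis) of the members tested in 6 comparisons (x axis), relative to all UMIs with TMM factors (top) and to the sum of the members (bottom). Filled points had an adjusted p under 0.05, lines are medians, and names mark members that left the common pattern. The medians at the top ran from -0.89 to 1.18, and those at the bottom lay near 0 by construction.

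Endothelial-like cells, which line vessels, had a share higher than oligodendrocyte-like cells by 2.33, 3.07 and 3.40 points (mean 2.93 ± 0.549, exact paired permutation p = 0.25). Of 81 members 45 were higher and 0 lower, where 15.8% and 15.8% of all genes were, with a median log2 difference of 0.79 against -0.18. The count was 3 without the medium and 21 without the late sample, 22 without the filter on low counts, 70 with total UMIs in place of TMM factors and 68 with only both classes fitted. Endothelial-like sums held 920 to 7514 CPM of oligodendrocyte markers (10 of 11 detected) and 1212 to 23430 CPM of erythroid markers (5 of 6 detected), of which oligodendrocyte-like sums held 0 to 6692 CPM. They also held 2945 to 4035 CPM of microglia markers (8 of 9 detected) and 2338 to 2723 CPM of macrophage or monocyte markers (6 of 12 detected), against 205 to 289 and 10.7 to 28.2 CPM in oligodendrocyte-like sums. The part of these markers was not tested.

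Rpl38, a large-subunit protein known for selective translation of Hox mRNAs, contributed 36.5, 33.5 and 40.9 per 1000 ribosomal protein UMIs in endothelial-like and 19.5, 19.3 and 18.2 in oligodendrocyte-like sums. Its log2 difference was 0.96 ± 0.25 relative to the total (edgeR adjusted p = 0.00175) and 1.75 ± 0.28 relative to all UMIs. Rps20 was also higher (0.66), at 12.9 to 14.2 against 8.16 to 9.11 per 1000, and it shared no 50-base stretch with a pseudogene or predicted gene row. Rpsa (-0.99) and Rpl7a (-0.66), a large-subunit protein, were lower, 2 and 2 of 81 (9.58% and 31% of all genes). Rpsa was at 9.70, 7.38 and 13.4 per 1000 against 19.96, 19.4 and 20.3, and Rpl7a at 6.82 to 7.23 against 10.7 to 11.7. None of these 4 kept its call without the medium sample, and by adjusted p alone DESeq2 called 25 members, cells classed by their own markers gave 8 and the fit without the filter on low counts gave 2. Of the other lists, where 15.8% of all genes were higher and 15.8% lower, 4 of 18 TOP mRNAs and 3 of 21 assembly genes were higher, 3 of 8 regulators were higher and 1 lower, and 2 of 72 mitochondrial ribosomal proteins were higher and 4 lower.

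No microglia-like cluster met the rule for cycling cells, so an unnamed cluster led by histone genes, Top2a and Mki67 was compared with microglia-like cells, a choice made after seeing the data. It held 67, 128 and 78 CD45+ cells. Mki67 was at 535 to 633 CPM, and P2ry12, a microglia marker, at 3002 CPM in the early and 664 and 633 CPM in the medium and late sums. Microglia-like sums had 2578 to 3477 CPM of P2ry12. Its share was 5.08%, 8.50% and 8.02%, below microglia-like cells in the early sample and above them in the other 2.

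Of 81 members 1 was higher and 0 lower (3.29% and 4.05% of genes), with 4 at an unadjusted p under 0.05 and 3 called by DESeq2, and the median log2 difference was -0.10. The called gene was Rps27l, at 3.27, 3.70 and 2.60 per 1000 ribosomal protein UMIs against 1.26, 1.46 and 1.00 in microglia-like sums. Its log2 difference was 1.23 ± 0.35 on all UMIs and 1.35 ± 0.35 relative to the ribosomal protein total (edgeR adjusted p = 0.0153; 2.73% of all genes passed this rule upward and 0.58% downward). It was lost without the medium or without the late sample, and it rested on 201 UMIs in the cycling cluster. Macrophage or monocyte markers (12 of 12 detected in both) summed to 431 to 2456 CPM in the cycling cluster and 268 to 452 CPM in microglia-like sums, and Rps27l also had the highest log2 difference in macrophage or monocyte-like against microglia-like cells (1.43). The part of these markers in the call was not tested.

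The place of each member within the total was followed over 13 classes, with counts pooled over the tumor samples of each class. Of 81 members with at least 1000 UMIs, 78 had a between-class SD under 0.5 on the log2 scale. Some of these still ranged widely. Rpl38 went from 12.5 per 1000 in neutrophil-like to 36.5 in endothelial-like cells. Rps29 went from 18.3 in glioma or oligodendrocyte progenitor-like to 44.7 in microglia-like cells. Rpl7l1 varied most (SD 0.94), from 0.266 per 1000 ribosomal protein UMIs in T cell-like to 3.61 in astrocyte-like cells. Rps27l came next (SD 0.79), from 1.24 in microglia-like to 8.41 in choroid plexus epithelial-like cells, and then Rpl22l1 (SD 0.72), from 1.16 in microglia-like to 4.87 in fibroblast-like cells. Rpsa (0.45), Rps2 (0.43) and Rpl12 (0.41) followed. The order depends on the pooling: over the 39 class sums taken singly, with 0.5 UMIs added, the SD was 1.12 for Rps27l, 1.08 for Rpl7l1, 0.74 for Rpl22l1, 0.53 for Rps2, 0.49 for Rpl12 and 0.46 for Rpsa. These are descriptions, since the classes differ in depth and in makeup.

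**Figure D5:**
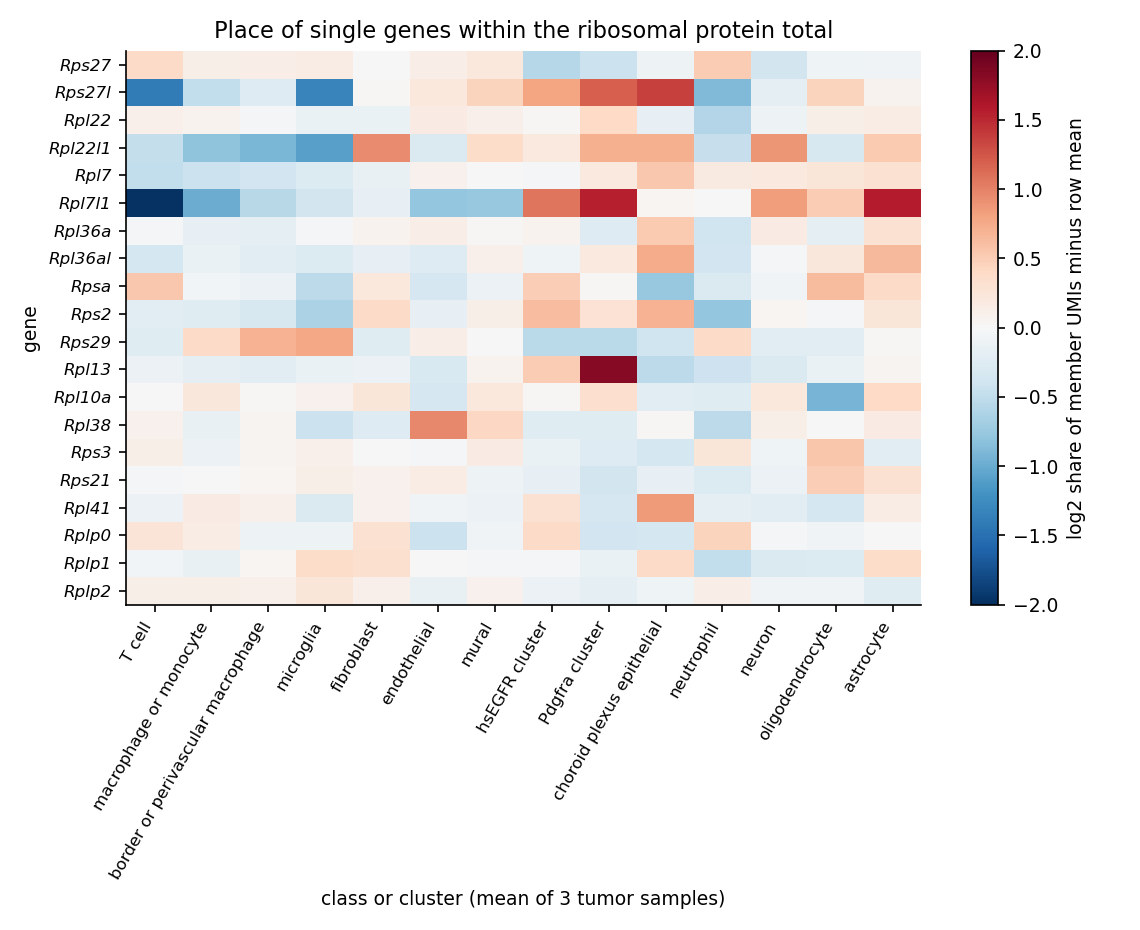
Place of 20 members within the ribosomal protein total: colors give the log2 of a gene's share of member UMIs minus the mean of its row, for 12 classes and the hsEGFR and Pdgfra clusters (x axis, mean of 3 tumor samples). Rps27l and Rpl7l1 ranged most, and Rpl13 stood out in the Pdgfra cluster at 67.1 to 75.4 per 1000.

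The genes whose level followed the members' sum most closely were named by Pearson's r over 39 class sums, among 8496 genes with at least 1000 UMIs. The sums share libraries and depth, so r is a description. Among the first 10 were 4 rows found to share sequence with a member, such as Rps23-ps1 (r = 0.975). The other rows included predicted genes such as Gm10689 (r = 0.974), and Wdr89 (r = 0.972). Shared sequence was looked for only in rows annotated as pseudogenes or named as predicted genes or ribosomal protein copies. It was therefore not looked for in Wdr89. Rack1 was eleventh (r = 0.966). Of the members, Rplp2 followed the sum of the members most closely (r = 0.980), and Rpl7l1 (r = 0.0634) and Rps27l (r = 0.404) were among those that did so least.

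Sequence shared with other rows was looked for among rows annotated as pseudogenes or named as predicted genes or ribosomal protein copies. It touched 73 of 84 members, and the 827 rows that shared it, of which 798 were annotated as pseudogenes, held 3.29% of all UMIs. With these rows counted as well, the share was 11.99% ± 1.17 in CD45+ and 7.52% ± 1.80 in CD45- sums. Of members that share no such stretch, between sorts 9 of 9 tested were higher (median 1.26), and in T cell-like against microglia-like cells 8 of 8 were (median 1.09). In the macrophage, endothelial and glioma or progenitor comparisons 2, 3 and 0 of 8 were higher. In the last, 15 of 73 members that share a stretch were. The hsEGFR cluster had 2 of 8 higher and the Pdgfra cluster 7 of 8 lower. Between these clusters 8 of 8 were higher in the first, and in cycling cells 0 of 8. Shares of all genes stand above with each comparison. The 34 departures from the common pattern were also taken with each member's own shared rows added to it and all 827 rows added to the total. All 34 kept their sign in all 3 tumor samples, and 33 kept a mean of at least 0.5. The exception was Rpl7l1 between sorts, at -0.41 ± 0.165 (SD, n = 3).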

How the data were processed

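The deposited file held raw UMI counts per gene and cell, which the authors made with RapMap in bcbio-nextgen against GRCm38 transcripts with transgene rows added (genome build mm10 in the submitters' processing notes), keeping cells told apart from empty droplets. For their own analysis the authors then removed ambient RNA (DropletUtils) and doublets (scDblFinder). Whether the deposited counts precede these steps is not given in the sources used here. Stage and sort came from the deposited annotation of libraries.

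Of 20811 cells, those with under 500 UMIs or genes or over 20% mitochondrial UMIs were removed, then 113 doublets called by Scrublet (0.635%), leaving 17781. Clustering (scanpy 1.11.5, leidenalg 0.10.2, 40 components, resolution 1) left out the members. The rules for naming clusters were set after the clusters were seen: a leading marker among the top 10 genes or at least 50% of a list, and no rival list with more. Counts were summed per tumor sample and sort or class (at least 20 cells) and fitted with edgeR 4.0.16 (R 4.3.3; filterByExpr, TMM, robust quasi-likelihood, tumor sample as block, Benjamini-Hochberg over all genes), and again scaled to the members' sum. The block was kept because deviations of the 2 sorts correlated within a tumor sample (r = 0.384, 0.280 and 0.302 over 18433 genes). Shares were compared by exact paired permutation tests (3 pairs, smallest p 0.25), and stages without a test. With the block, p-values of the fits weigh a difference against how it varied over the 3 tumor samples, which were of 3 sizes. In the class and cluster fits the dispersion was estimated over all groups fitted, not only the 2 compared. DESeq2 1.42.0 was an alternative. The planned comparison of cycling with other microglia-like cells could not be made, since no cluster met both rules.

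Named genes were paralog pairs, the 3 members of each subunit with most UMIs, the stalk proteins and Rpsa, the 3 highest and lowest in each comparison, and at most 8 members per comparison that left the common pattern. Members and lists were chosen with earlier results of these data known. In simulated data, 200 genes outside the members were changed. The fit between sorts, over 18433 genes, recovered 12.4% of their 2-fold and 90.1% of their 4-fold changes, and 9 of 10 departing members. The T cell fit recovered 43.7% and 94.4%, and 10 of 10 departing members. Far more genes were called between the real sorts than were changed there, so this recovery need not hold for the real fit. One allele and one gene that the naming rule picked are not reported here.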

Additional observations from a re-analysis of the deposited data

Results flagged for a closer look

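In the early tumor sample the share of ribosomal protein UMIs in glioma or oligodendrocyte progenitor-like cells minus that in oligodendrocyte-like cells was -0.564 percentage points, while the medium and late samples had 2.68 and 3.40. The difference between tumor samples was not tested. The class was mostly the Pdgfra cluster in the early sample and mostly the hsEGFR cluster in the others.

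Rows named as ribosomal protein pseudogenes, which are not members, held 1.43% of all UMIs over 289 rows. They lie outside the main measurement.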

How the results depend on the processing

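Of 96 called values of single genes, 840 alternatives gave 656 with the same call, 184 that lost it and 0 reversed. The difference in share between sorts (3.35 points) was 4.47 with rows sharing sequence added and 2.91 to 3.94 leaving out a tumor sample. Stage differences were, for CD45+ medium over early (1.64), 1.79 as a mean over cells and 2.47, 1.57 and 1.71 by run. For CD45+ late over early (0.964) they were 1.01 with every deposited cell, 0.723 over cells, 0.889 without mitochondrial genes and 1.54, 1.29 and 0.650 by run. For CD45- medium over early (1.05) they were 1.23 with every deposited cell, 0.722 over cells and 1.49, 0.898 and 1.42 by run. For CD45- late over early (2.43) they were 2.76 with every deposited cell, 1.53 over cells, 2.36 without mitochondrial genes and 2.65, 2.58 and 2.12 by run. Without unnamed clusters, left out after seeing the data, these 4 differences were 1.53, 0.906, 0.611 and 1.01. With cells classed by their own markers the macrophage difference was 3.80 and the T cell one 8.85 (8.79 over cells, 8.70 without mitochondrial genes).

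Leaving out a tumor sample gave 21 to 77 calls between sorts (1 to 4 relative to the total), 38 to 73 for T cells (0 to 4), 1 to 14 for macrophages (0 to 1), 2 to 38 for glioma or progenitor cells (0 to 3), 3 to 45 for endothelial cells (0 to 3), 2 to 53 for the hsEGFR cluster (0 to 5), 29 to 44 for the Pdgfra cluster (2 to 6), 27 to 78 between both clusters (1 to 3) and 0 to 1 for cycling cells (0 to 1). The lowest counts mostly came without the medium sample. Shares of all genes called are not given for these and the following fits, so the counts are of members alone. DESeq2 gave 45 macrophage, 23 glioma, 52 hsEGFR cluster and 3 cycling calls, and relative to the total 26 T cell, 25 endothelial, 29 glioma, 8 macrophage, 9 between clusters, 32 hsEGFR, 22 Pdgfra and 6 cycling. Without the filter on low counts there were 22 endothelial, 8 glioma, 9 macrophage and 16 hsEGFR calls, and relative to the total 2 endothelial, 2 glioma, 1 between clusters, 1 hsEGFR and 3 Pdgfra. Without TMM factors there were 49 between sorts, 70 endothelial, 53 glioma, 74 hsEGFR, 18 Pdgfra and 3 cycling calls. By own markers there were 2 glioma and 38 macrophage calls, and relative to the total 9 T cell, 8 endothelial and 3 macrophage. With only both classes fitted there were 68 endothelial, 3 glioma and 77 macrophage calls, and relative to the total 35 T cell, 0 glioma and 12 macrophage. Without the replicate block there were 8 macrophage calls and 3 for the hsEGFR cluster relative to the total, and no other count moved by over 1.5 times. The share of stage values past 1.5-fold was 13.1%, or 2.61% outside glioma or progenitor-like pairs with the early sample. It was 1.50% in run 2 and 2.32% in run 3, where fewer pairs had enough cells, so neither is matched to the 13.1%. The cause of the other shifts was not tested. Depth limits Rpl10l, Rpl3l and Rpl39l, which had too few UMIs for most comparisons.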

Other observations

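Apart from the cycling cluster, unnamed clusters were outside every comparison of classes, and hsEGFR was not measured in each of them. One led by Fbln2, Thbs2 and Tnc held 532 late CD45- cells with a ribosomal protein share of 8.08% there, and one of 118 cells led by Elane, Prtn3 and Mpo, granule genes of myeloid precursors, had 10.7%.

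UMIs on rows that share sequence with a member, per member UMI, were 0.108 in the CD45+ library of 17 cells and ranged in the other CD45+ libraries from 0.200 in one of 136 cells to 0.924 in a CD45+ library of 1751 cells, and from 0.409 to 0.823 among CD45- libraries.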
